A study of Canis lupus familiaris with 4 samples.

Results

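The comparison is between a pair of arrays from MDCKII cells labelled HIF1A WT, one kept in hypoxia and one in normoxia. MDCKII is an established line of dog kidney epithelial cells that forms polarised sheets. The comparison takes 2 of the 4 arrays of the study, those titled for WT hypoxia and WT normoxia, and subtracts the second from the first for every gene. Per the labels, both cultures were first held for 24 h in normoxia and then for another 24 h in either hypoxia or normoxia, and both were labelled wild type for HIF1A. The other 2 arrays hold cells labelled HIF1A KD under the same conditions. They form a second pair that shares no array with the WT pair. Each group has 1 array, so no difference has a replicate check, no test can be run, and precision is limited by how many arrays there are. The oxygen level, the means of knockdown and whether the WT cells carried a control construct are not stated in the labels. All directions are those of the labels, and WT, KD, normoxia and hypoxia name the labels of the arrays throughout.

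Cells sense oxygen through hypoxia-inducible factor, a transcription factor made of an alpha subunit and ARNT. When oxygen is present, prolyl hydroxylases mark the alpha subunit for destruction by the VHL ligase, so its protein, more than its mRNA, follows oxygen. In low oxygen the stable factor is known to raise genes of glucose uptake, glycolysis, blood vessel growth and acid export in kidney epithelium as elsewhere.

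HIF1A mRNA, which encodes that alpha subunit, read 3651 in the array labelled WT normoxia and 675 in the array labelled WT hypoxia. These are intensities, the brightness of a probe set on a linear scale as the authors deposited it. The KD arrays read 3435 in normoxia and 625 in hypoxia, so the HIF1A level went with the oxygen label and not with the knockdown label. Whether the oxygen and knockdown labels belong to these arrays as given was not settled by the files, and a crossing of labels would change what every hypoxia, normoxia, WT or KD value stands for. The difference in the WT pair was -2.41, on the scale log2(intensity + 16) used throughout, on which 1 is a 2-fold difference and dim genes are understated. A second HIF1A probe set read 135 in normoxia and 27.6 in hypoxia, a difference of -1.80. The remaining HIF1A probe set lay below the floor in all 4 arrays. The floor is an intensity of 46.3, the median of all values, and a gene that reached it in at least 1 of the 4 arrays was compared. Where 1 array of a pair lies below the floor, the difference is printed as a value on this scale, but the size is not measured. A gene is called below the floor by its representative probe set, the one with the highest mean intensity.

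The WT arrays had median intensities of 47.1 in normoxia and 47 in hypoxia, and correlated across probe sets with r = 0.987, against 0.982 to 0.987 over all pairs of arrays. Of 20 epithelial marker genes 19 were measured and 14 reached the floor in each WT array, among them KRT18 (13959 in normoxia and 14355 in hypoxia), EPCAM (9356 and 11210), KRT7 (8036 and 8179) and CLDN7 (5119 and 4727). CDH1, CLDN2, PAX2, PAX8 and ST14 were below the floor in both WT arrays. The summed epithelial intensity was 49035 in normoxia and 50237 in hypoxia. For fibroblasts 1 of 10 markers reached the floor in each WT array (summed intensity 213 and 227), for endothelial cells 3 of 8 (382 and 394), and for leukocytes 4 and 3 of 11 (518 and 499). PTPRC, the common leukocyte marker, read 69.3 and 44.1. COL1A1 of fibroblasts (10.8 and 5.84) and PECAM1 of endothelium (16.4 and 17.7) stayed below the floor. Other markers of these types reached it in both WT arrays. They were PDGFRA of fibroblasts (54.8 and 49) and CD4 (69.9 and 63.4) and CD68 (177 and 183) of leukocytes. For endothelium they were CDH5 (178 and 155), TIE1 (56 and 57.3) and KDR (47.3 and 66.1). Of 7 proximal tubule markers 3 reached the floor in WT normoxia and 4 in WT hypoxia. In these whole-culture samples fewer cells of a type and less RNA per cell cannot be told apart.

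Few genes stood far apart between the WT arrays. SPINK5 and CXCL10 were among the furthest on the higher side, and STEAP2, MMP13 and CCL2 on the lower side. Of 9834 genes that reached the floor, 59 were at least 2-fold higher in hypoxia (0.600% of them) and 56 lower by as much (0.569%), together 1.17%. Above 0 were 52.4% of these genes. The median difference was 0.01, and the lower and upper quartiles were -0.15 and 0.16. At least 4-fold higher were 9 genes and 4-fold lower another 9. Of genes at the floor in both WT arrays, SPINK5 was the 1 at least 8-fold higher and MMP13 the 1 at least 8-fold lower. SOCS1 and STEAP2 also passed 8-fold on this scale, each with 1 WT array below the floor, so their sizes are not measured. CCL2 came just short of 8-fold lower. The last gene inside the 2-fold limit on the higher side was IFGGC1 at 1.006 and the first outside was HNRNPA0, just under the limit at 1.000 after rounding. On the lower side these were NR1H4 at -1.016 and CD2AP at -0.991.

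**Figure D1:**
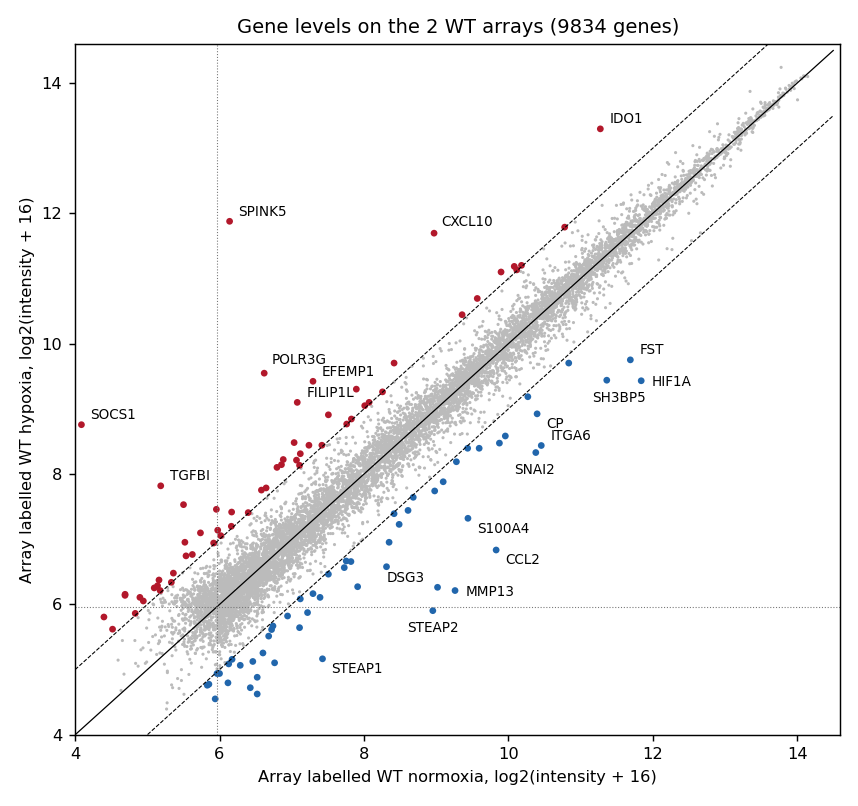
Level of each of 9834 genes in the array labelled WT normoxia (horizontal) and WT hypoxia (vertical), both as log2(intensity + 16). Red points are the 59 genes at least 2-fold higher in hypoxia, blue points the 56 at least 2-fold lower, dashed lines mark 2-fold, dotted lines mark the floor, and SPINK5 and CXCL10 lie far above the diagonal.

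Bright genes differed less than dim ones. Among the 1046 genes whose mean intensity in the WT pair was under 50, the median size of the difference was 0.26 and 2.49% were at least 2-fold apart. Among the 2591 genes with a mean of 1000 or more it was 0.11, and 0.540% were at least 2-fold apart. Of the 59 higher genes 37 reached the floor in both WT arrays, 19 in 1 and 3 in neither. Of the 56 lower genes these numbers were 33, 20 and 3.

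Other probe sets of the same genes give a further reading of the same RNA. Of the higher genes, 25 had another probe set at the floor in at least 1 WT array, 29 probe sets in all. Of these, 25 were higher too and 10 at least 2-fold, with a median of 0.69. Of the lower genes, 19 had 23 such probe sets, of which 23 were lower and 8 at least 2-fold, with a median of -0.66. Some of these probe sets passed the floor only through their brighter WT array, such as ADD3 (43.9 and 64.6) and MMP13 (132 and 22.5). Probe sets below the floor in both WT arrays were left out. The share of agreeing probe sets over all genes was not counted, so these counts have no background to be read against. Exceptions among the higher genes were LETM2 (-0.06 and -0.10), SCUBE3 (-0.55) and VWA5B2 (-0.19), whose other probe sets were lower.

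The KD pair gave its own values for the same genes. Of the 59 genes higher in the WT pair, 50 were also higher in the KD pair and 23 at least 2-fold, which is 39.0% of that list and 41.8% of the 55 genes of the KD pair. Of the 56 lower genes, 47 were lower in the KD pair and 31 at least 2-fold, 55.4% of that list and 31.6% of the 98 of the KD pair. In the KD pair 0.559% of all genes were higher by that much and 0.997% lower (together 1.56%), and 52.5% were above 0. Among the lower genes at the floor in both WT arrays, 32 of 33 were lower in the KD pair, with a median of -1.35. Among those at the floor in 1 WT array, 13 of 20 were, with a median of -0.72. For the higher genes these counts were 35 of 37 (median 0.97) and 14 of 19 (median 0.61).

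**Figure D2:**
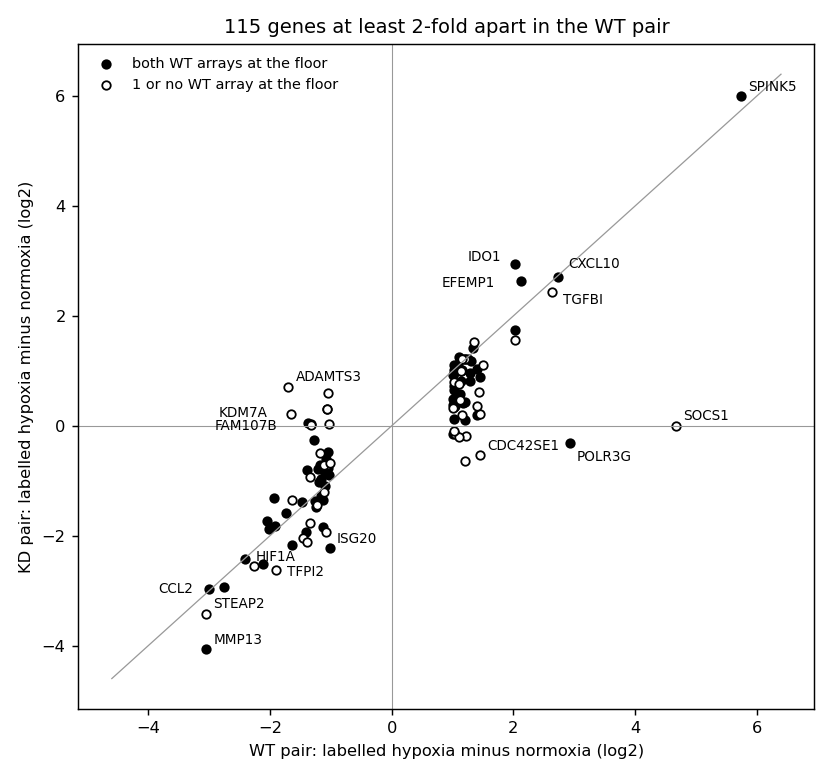
Each of the 115 genes at least 2-fold apart in the WT pair, with its difference there (horizontal, log2) against its difference in the KD pair (vertical, log2), filled where both WT arrays reached the floor and open otherwise. HIF1A, CCL2, CXCL10 and SPINK5 lie near the diagonal, and POLR3G and SOCS1 lie at or below 0 in the KD pair.

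SPINK5 showed the largest difference among genes at the floor in both WT arrays. It encodes LEKTI, a secreted inhibitor of serine proteases in layered epithelia. Its intensity was 54.5 in WT normoxia and 3751 in WT hypoxia, and 33 and 3110 in the KD arrays. Both hypoxia arrays were far above both normoxia arrays. Here and below, such separation is given for genes picked by their WT difference, which already sets the order of the WT arrays. The share of all genes with it was not counted. The WT difference was 5.74, and KD normoxia was below the floor. Other inhibitors did not share it. TFPI2, an inhibitor of the Kunitz type, read 75.9 and 8.69 in the WT pair and 155 and 11.6 in the KD pair, so it was lower in both hypoxia arrays, which were below the floor. SPINT1 (-0.58, 27.7 in hypoxia), which restrains matriptase and the HGF activator, was lower, while SPINT2 (0.05), SERPINB1 (0.03) and SERPINE2 (-0.19) differed little. The protease PRSS23 was lower by 0.91 on the log2 scale, with 154 in normoxia and 74.2 in hypoxia. Another PRSS23 probe set at the floor in both WT arrays read 68.2 and 62.1 (-0.11). Of the 32 measured members of the list of 34 serine protease inhibitors and epithelial proteases, 13 were higher and 19 lower, with a median of -0.07. Over all 15115 measured genes 51.3% were higher and 47.9% lower. Counts of members past 2-fold here and for the other lists are over members that reached the floor. SPINK5 was the 1 member at least 2-fold higher and TFPI2 the 1 at least 2-fold lower.

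Matrix proteases were mostly lower in hypoxia. MMP13, a collagenase, read 598 in WT normoxia and 58.2 in WT hypoxia, and 1242 and 59.1 in the KD arrays. The normoxia arrays differed between themselves by more than the hypoxia arrays did, but both stood well above them. Its difference was -3.05, and a second probe set, below the floor in WT hypoxia, gave -1.94. PLAU, the urokinase that activates plasminogen, read 395 and 184 (-1.03). ADAM9, a membrane protease that sheds surface proteins, read 1027 and 558 (-0.86) in the WT pair and was at 0.12 in the KD pair. Another ADAM9 probe set at the floor in both WT arrays gave -0.30 in the WT pair and 0.25 in the KD pair. CTSK, a lysosomal collagen-degrading protease, was at -0.54 and TIMP1, which inhibits metalloproteinases, at -0.47. TIMP3, an inhibitor bound to matrix, was at 0.58, with 3005 in normoxia and 4490 in hypoxia. ADAMTS3, which processes procollagen, read 70 and 10.4 in the WT pair but was below the floor in both KD arrays. Of 31 listed genes 23 were measured, 8 of them higher and 15 lower, with a median of -0.26 against 0.01 in the KD pair. MMP13, ADAMTS3 and PLAU were the 3 at least 2-fold lower, and none was at least 2-fold higher. A further 5 list members were 2-fold apart on this scale but below the floor in all 4 arrays, and are not counted. They were MMP14, LCN2, ANXA6, TCF7 and ERBB2.

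Genes for matrix proteins leaned the other way. TGFBI, a matrix protein that binds integrins, read 20.4 and 210 in the WT pair and 67.2 and 435 in the KD pair, so only its WT normoxia value was below the floor. EFEMP1, a fibulin of elastic matrix, read 141 and 671 in the WT pair and 84.2 and 604 in the KD pair. Its WT difference was 2.13, and 1.36 in a second probe set that was below the floor in WT normoxia. Both hypoxia arrays were above both normoxia arrays for each of these genes. COL7A1, which anchors epithelia to the underlying matrix, read 9.83 and 54.5 in the WT pair and stayed below the floor in both KD arrays. Of 38 measured matrix genes 27 were higher and 11 lower (median 0.14), with 3 at least 2-fold higher and none at least 2-fold lower. Of the 38, 15 were below the floor in both WT arrays, and the 18 at the floor in both had a median of 0.22. The fibrillar collagen COL5A1 was at 0.92, FBLN1 at 0.72 and the basement membrane collagens COL4A1 and COL4A2 at 0.58 and 0.47. The laminin chains LAMB3 (-0.65, and 0.07 in a second probe set) and LAMA3 (-0.54), which hold epithelia at their base, were lower. SCUBE3, a secreted glycoprotein named after its values were seen, read 326 and 818, but its second probe set pointed the other way.

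Targets of TGF-beta, BMP and YAP signalling were mixed. ANKRD1, a YAP target, read 744 in WT normoxia and 1642 in WT hypoxia (1.12), and 1395 and 2091 in the KD arrays. CCN2, another YAP and TGF-beta target, was at 0.58, while CCN1 was at 0.05. The BMP-responsive genes ID1 (240 and 428) and ID3 (437 and 793) were higher by 0.79 and 0.84, and the ligands BMP2 (-0.71) and BMP4 (-0.67) were lower. FST, which binds and blocks activin, read 3288 and 847 in the WT pair and 3632 and 1455 in the KD pair, a WT difference of -1.94. Both hypoxia arrays were below both normoxia arrays. IGFBP4, a binding protein of insulin-like growth factors, read 924 and 340 in the WT pair and 1769 and 451 in the KD pair (-1.40 and -1.93), although a second probe set gave -0.38 in the WT pair. CDKN2B, a cyclin kinase inhibitor that TGF-beta can induce, read 100 and 267 (1.29). Of 29 measured genes of the TGF-beta and YAP list 18 were higher and 11 lower, with a median of 0.05, and TGFBI and ANKRD1 were the 2 past 2-fold.

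**Figure D3:**
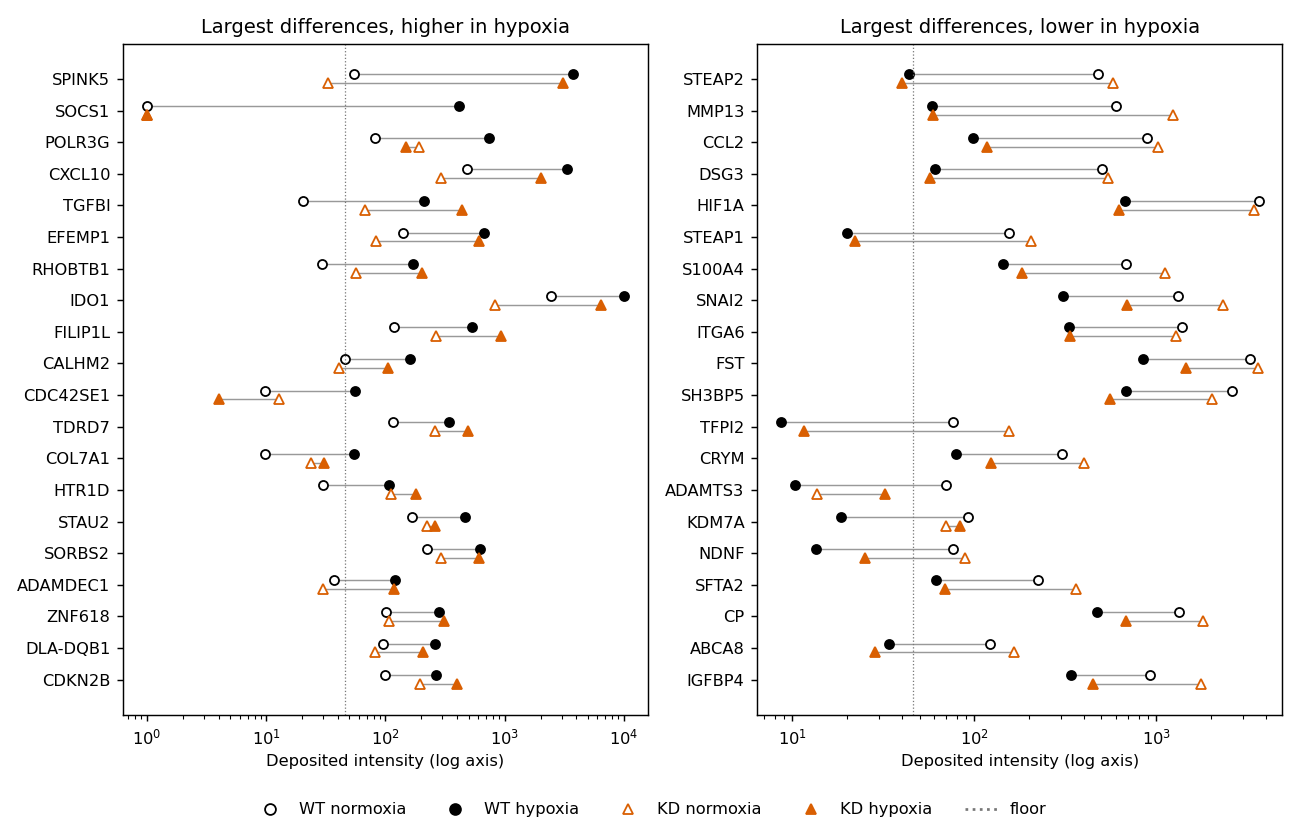
Deposited intensity (log axis) of the 20 genes with the largest WT differences in each direction, with circles for the WT pair and triangles for the KD pair, open for normoxia and filled for hypoxia, and a dotted line at the floor. For SPINK5, CXCL10 and EFEMP1 both filled symbols lie right of both open ones, and for HIF1A, CCL2 and DSG3 both lie left.

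Chemokines lay on both sides. Epithelial chemokines recruit white blood cells, and CCL2 draws monocytes while CXCL10 draws T cells. CCL2 read 895 in WT normoxia and 98.2 in WT hypoxia, and 1025 and 117 in the KD arrays, so normoxia was 9.12 times hypoxia in the WT pair and 8.79 times in the KD pair on the linear scale. CXCL10 read 486 and 3304 in the WT pair and 294 and 2013 in the KD pair, differences of 2.73 and 2.71, and a second CXCL10 probe set gave 2.91 in the WT pair. Neither gene's hypoxia and normoxia arrays overlapped, and the share of all genes with such separation was not counted. CCL7, a monocyte chemokine related to CCL2, read 81.1 and 22.2, with the hypoxia value below the floor. CCL17, a T cell chemokine, read 2370 and 1293 (-0.87) and CCL20, which draws dendritic cells, 277 and 157 (-0.76). The colony factor CSF2 was at -0.62. Of 28 listed chemokines and cytokines 27 were measured, and 15 of these were below the floor in both WT arrays. Of the 27, 11 were higher and 16 lower, with a median of -0.12. CXCL10 was at least 2-fold higher, and CCL2, CCL7 and CXCL8 at least 2-fold lower. CXCL8, the neutrophil chemokine, was below the floor in both WT arrays (45.4 and 7.44).

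The NF-kappaB list, of subunits, inhibitors and targets of that inflammatory factor, had no member past 2-fold among the 16 that reached the floor. Of 23 measured members 9 were higher and 14 lower (median -0.24, and -0.03 over the 14 at the floor in both WT arrays). PTGS2, a prostaglandin synthase, was at -0.48, the mitochondrial dismutase SOD2 at -0.41 and the inhibitor NFKBIA at -0.38. ICAM1 (0.26) and IER3 (0.39), both targets of the factor, were higher. BCL2A1, a survival protein that NF-kappaB induces, read 4320 and 2480 (-0.80), and MCL1 of the same family 2672 and 1894 (-0.49). Another MCL1 probe set gave -0.06 in the WT pair. The death promoter BAD was at -0.32. Of 21 measured genes of the BCL2 family and death receptor list 7 were higher and 14 lower, with none past 2-fold.

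Interferon-stimulated genes, the antiviral programme of the cell, were mostly higher in hypoxia. Of 44 listed genes 34 were measured, and 26 of them were higher and 8 lower, with a median of 0.27 against 0.12 in the KD pair. IDO1, which breaks down tryptophan and is induced by interferon gamma, read 2461 and 10053 in the WT pair and 829 and 6471 in the KD pair. Both hypoxia arrays were above both normoxia arrays. Its WT difference was 2.02, and its other probe sets gave 3.27 and 2.55. Effectors of antiviral defence were higher by less: IFI44L was at 0.99 (1011 and 2027), MX1 at 0.76, PARP14 at 0.73, USP18 at 0.72, ISG15 at 0.62 and MX2 at 0.55. Of the factors that drive them, IRF7 was at 0.68, IRF9 at 0.49, IRF1 at 0.07 and STAT2 at -0.07. ISG20, an antiviral exonuclease, was the 1 member at least 2-fold lower, at 326 and 152 (-1.02), and at -2.23 in the KD pair. IDO1 and CXCL10 were the 2 at least 2-fold higher. Of the 33 members that reached the floor, 8 were at least 1.5-fold higher and 1 lower by as much. Of all 9834 genes that reached it, 328 were at least 1.5-fold higher and 283 lower, together 6.21%.

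SOCS1, which shuts off interferon receptors, was listed at 1 in WT normoxia and in both KD arrays and read 417 in WT hypoxia. No fold is given against a value listed at 1, and the gene had no other probe set. The related SOCS3 was at -0.36 and SOCS2 at -0.14. The phosphatase PTPN6 read 84.9 and 144 (0.67), and the transcription factor STAT6 was at -0.53, below the floor in hypoxia. Of 19 measured genes of JAK-STAT feedback 10 were higher and 9 lower, with a median of 0.05. DLA-DQB1, a class II antigen-presenting molecule, read 95.1 and 259 in the WT pair and 81.5 and 205 in the KD pair, a WT difference of 1.31. Its family is made of near-identical genes that a probe set may not tell apart. DLA-DQA1 was at 0.67, with -0.01 in a second probe set, and DLA-DRA at 0.48, while the class I partner B2M (0.01) and the peptide transporter TAP1 (0.05) differed little. The class I gene DLA-64 was at 0.34. The proteasome subunits PSMB8 (-0.56, 33.7 in hypoxia) and PSMB9 (-0.33) were lower. Of 19 measured antigen presentation genes in the list 9 were higher and 10 lower, with a median of -0.07.

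Cell adhesion showed a few large differences and small shifts of the other members. DSG3, a desmosomal cadherin that joins keratinocytes, read 503 in WT normoxia and 60.8 in WT hypoxia, and 542 and 57.3 in the KD arrays. The 2 normoxia arrays were close to each other and well above the hypoxia arrays, with WT and KD differences of -2.76 and -2.93. The plaque proteins PPL (4685 and 2799, -0.74), JUP (-0.32) and PKP3 (-0.31) and the cadherin DSC2 (-0.48) were lower, and DSP, which links plaques to keratin, was at 0.38. Of 15 measured desmosome genes 4 were higher and 11 lower, with a median of -0.14. That median was 0.02 when the median over all probe sets of a gene was used. DSG3 was the 1 member past 2-fold. ITGA6, the integrin chain that pairs with ITGB4 to hold epithelium to laminin, read 1389 and 331 in the WT pair and 1276 and 337 in the KD pair. Its WT difference was -2.02, and its other probe sets gave -1.83, -2.31 and -0.26. ITGB4 was at -0.31, ITGA2 at -0.50, ITGA1 at 0.34, ITGB1 at 0.12 and ITGAV at -0.04. Of 22 measured integrin genes 10 were higher and 12 lower, and ITGA6 was the 1 past 2-fold.

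Tight and adherens junction genes, which seal the epithelial sheet, held no member past 2-fold. Of 34 measured, 14 were higher and 20 lower, with a median of -0.06. Of those at the floor the highest were the neural cadherin CDH2 (1225 and 2114, 0.78), MARVELD2 (0.68) and CLDN1 (0.67), and the lowest NECTIN2 (-0.48) and CLDN3 (-0.43). OCLN (-0.23) and TJP1 (-0.22), core parts of the tight junction, were slightly lower. SNAI2, a transcription factor of the epithelial-mesenchymal transition, read 1317 in WT normoxia and 306 in WT hypoxia, and 2335 and 690 in the KD arrays. Both hypoxia arrays were below both normoxia arrays, with differences of -2.05 and -1.74. The intermediate filament VIM (0.03) and EPCAM (0.26), which mark the ends of that transition, differed little, as did KRT18 (0.04) and KRT8 (-0.02). ACTA2, a smooth muscle actin, read 51.7 and 29.6, below the floor in hypoxia. Of 26 measured genes of the transition list 15 were higher and 11 lower, and SNAI2 and S100A4 were the 2 past 2-fold, both lower.

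S100 proteins bind calcium and are abundant in epithelia. S100A4, linked to cell motility, read 679 and 144 in the WT pair and 1113 and 182 in the KD pair, differences of -2.12 and -2.51. S100A2 read 1813 and 818 in the WT pair and 4831 and 1886 in the KD pair, differences of -1.13 and -1.35, with -0.99 in a second WT probe set. S100A16 (-0.96), S100A14 (4911 and 2772, -0.82) and S100P (2356 and 1542, -0.61) were lower as well, while S100A6 (18117 and 17549, -0.05) and S100A11 (13731 and 12675, -0.12) differed little. The annexins ANXA1 (13552 and 13511) and ANXA2 (17120 and 17132) were nearly equal. Of 23 measured S100 and annexin genes 5 were higher and 18 lower, with a median of -0.26 against -0.18 in the KD pair.

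Iron handling genes differed most at the metalloreductases, which reduce iron and copper before uptake. STEAP2 read 480 in WT normoxia and 43.9 in WT hypoxia, and 582 and 39.9 in the KD arrays. STEAP1 read 156 and 19.9 in the WT pair and 206 and 22.1 in the KD pair. All hypoxia values of these probe sets were below the floor. Another STEAP2 probe set was above it in all 4 arrays, with 144 and 63.2 in the WT pair (-1.02). A further one, below the floor in WT hypoxia, gave -1.26. The ferroxidases that load iron onto transferrin were lower too. CP, ceruloplasmin, read 1334 and 470 in the WT pair and 1813 and 680 in the KD pair (-1.47 and -1.39), with -1.48 in a second WT probe set, and HEPH was at -0.63. TFRC, the transferrin receptor (-0.04), the ferritin chains FTH1 (0.06) and FTL (0.19) and the metallothionein MT1E (0.00) differed little. Of 22 measured members 10 were higher and 12 lower, with a median of -0.02, and STEAP2, STEAP1 and CP were the 3 past 2-fold among those that reached the floor.

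Genes of glutathione and thioredoxin chemistry, which handle oxidants and are targets of NRF2, were mostly higher. GCLC, the rate-limiting enzyme of glutathione synthesis, read 1068 and 2316 in the WT pair and 336 and 821 in the KD pair, differences of 1.11 and 1.25, with 0.90 in a second WT probe set. GLRX, a glutaredoxin outside the list and named after its values were seen, read 641 and 1379 (1.09), while another GLRX probe set gave 1.24 and yet another 0.05. TXN was at 0.46 (14033 and 19351), its reductase TXNRD1 at 0.47, the glutathione reductase GSR at 0.32 and NFE2L2, which encodes NRF2, at 0.48. NQO1 (0.11) and GCLM (0.10) differed less. The efflux pump ABCC1 went the other way, at 200 and 85.6 (-1.09). The related ABCC2 (68.6 and 36.5) was below the floor in hypoxia and OSGIN1 (37.4 and 77.7), an oxidative stress gene, in normoxia. Of 23 measured NRF2 and antioxidant genes 17 were higher and 6 lower, with a median of 0.13 against 0.17 in the KD pair. In the heat shock list ZFAND2A, which responds to arsenite and heat, read 1146 and 2342 (1.02). Its other probe sets gave 0.96 and 0.15 in the WT pair. The chaperones HSPA4 and HSPH1 were at 0.55 and 0.63, and the small heat shock protein HSPB1 read 5928 and 3048 (-0.96). Of 18 measured heat shock genes 13 were higher and 5 lower, with a median of 0.11.

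Glycolysis genes, which hypoxia commonly raises, were more often lower than higher in the WT pair, by small amounts. Of 26 glycolysis and lactate export genes 25 were measured, 7 higher and 18 lower, with a median of -0.05, and none was past 2-fold. Core members hardly differed by their brightest probe sets. The glucose transporter SLC2A1 read 7822 and 7659, LDHA, which makes lactate, 10946 and 10927, ENO1 13423 and 13115, and PGK1 4642 and 4381. Dimmer probe sets at the floor gave -0.30, -0.14 and -0.17 for ENO1, -0.34 for PGK1 and -0.04 for LDHA in the WT pair. PDK1, a classical target of the factor, read 488 and 455 (-0.10) in the WT pair and was at -1.93 in the KD pair. A second PDK1 probe set read 218 in KD normoxia, and 37, 34.7 and 53.6 in WT normoxia, WT hypoxia and KD hypoxia, so KD normoxia stood alone as the high array. ALDOC was at -0.19 and -1.38 in the same order, GPI at 0.04 and -1.09, and PFKFB3 at -0.14 and -1.27. The list median in the KD pair was -0.43. The difference between the pairs was not tested, since each group has 1 array. SLC2A3, a second glucose transporter, was the highest in the WT pair at 0.76, with 33.4 in normoxia, below the floor. The lactate exporters SLC16A1 (-0.48) and SLC16A3 (-0.46, 42.5 in hypoxia) and GAPDH (321 and 231, -0.45) were the lowest, and GAPDH was at -1.14 in the KD pair.

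Of 39 other hypoxia response genes 35 were measured, 19 higher and 16 lower, with a median of 0.04 against -0.15 in the KD pair. VEGFA, the main growth factor for vessels, read 2326 and 2281 (-0.03), CA9, a carbonic anhydrase used as a hypoxia marker, 112 and 108 (-0.05), and the hydroxylase EGLN1 333 and 343 (0.04). Higher were LOXL2 (1747 and 3476, 0.99), which crosslinks collagen, ANGPTL4 (53.4 and 99.4, 0.73, but -0.24 in a second probe set), which blocks lipoprotein lipase, and the vasodilator peptide ADM (563 and 941, 0.72). Another LOXL2 probe set at the floor in both WT arrays gave 0.37. Lower were CP and the mitophagy receptor BNIP3L (641 and 378, -0.74), so members of the same list lay on both sides. ADM was at -1.15 and BNIP3L at -1.29 in the KD pair. CP was the 1 member past 2-fold. Of the HIF machinery, ARNT (0.05), VHL (-0.04), EGLN2 (-0.08) and ELOC (0.02) differed little, EPAS1, a second alpha subunit, was at -0.35 (54.2 and 39.2) and HIF3A at -0.78 (55.6 and 25.8), both below the floor in hypoxia. The cullin CUL2, part of the VHL ligase, was the highest at 0.28. EGLN3 was below the floor in both WT arrays and at -1.86 in the KD pair, with 1 KD array at the floor. A second EGLN3 probe set read 89.8 in KD normoxia, and 12.9, 19.6 and 24 in WT normoxia, WT hypoxia and KD hypoxia. In the KD pair 4 genes of the HIF list were higher and 10 lower. Of 14 measured genes of the HIF list 5 were higher and 9 lower, and HIF1A was the 1 past 2-fold.

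**Figure D4:**
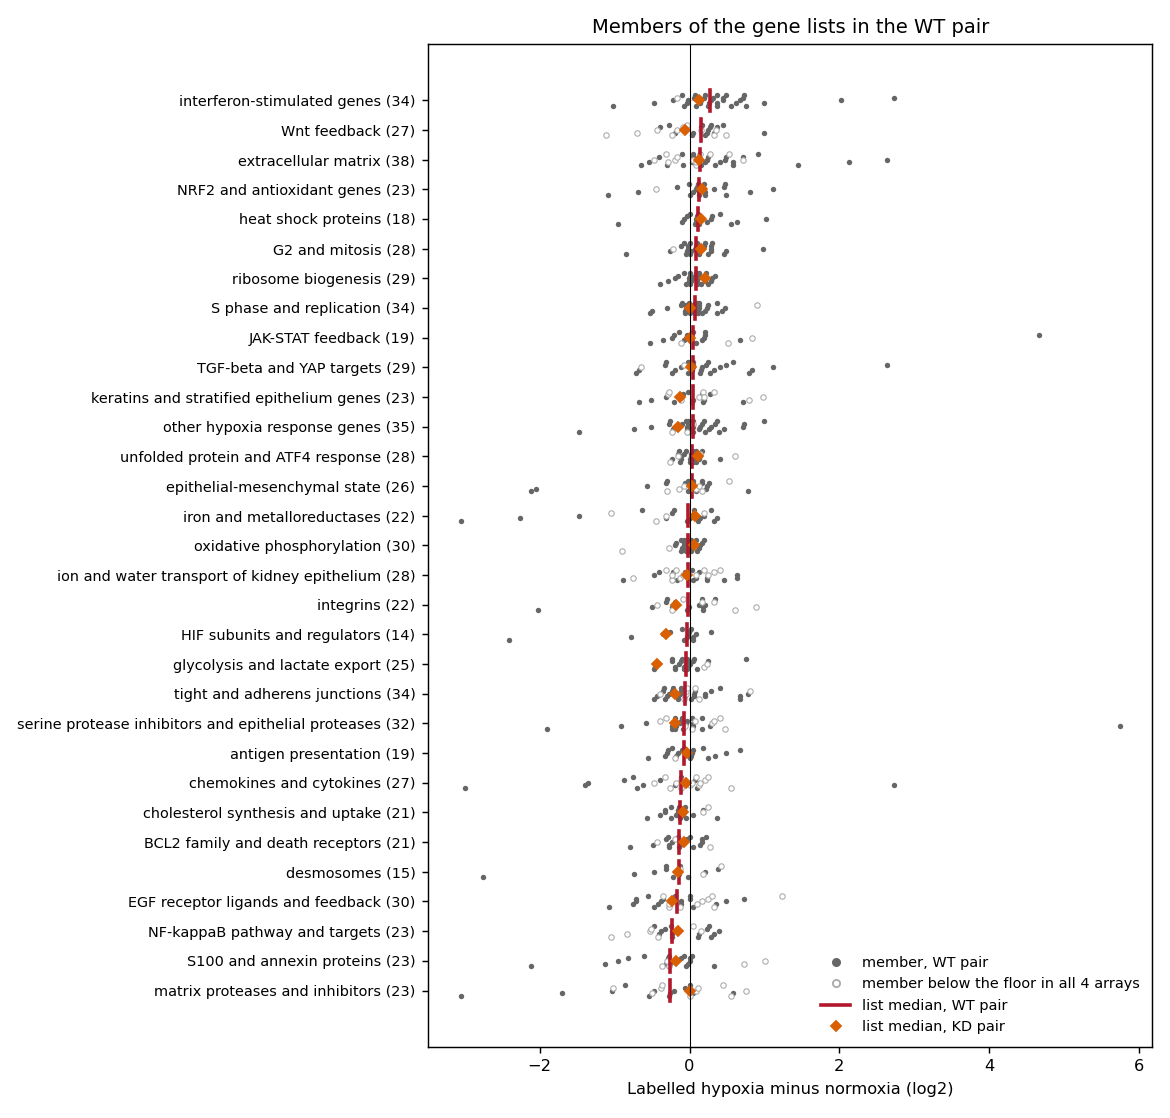
Difference of each measured member (grey points, log2, labelled WT hypoxia minus normoxia) of the 31 gene lists, ordered by list median, with the number of measured members in brackets and open points for members below the floor in all 4 arrays. The red bar is the list median in the WT pair, the orange diamond that in the KD pair, and the WT medians run from -0.26 for matrix proteases to 0.27 for interferon-stimulated genes.

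Growth factor and Wnt genes at the floor differed by less than 2-fold with 1 exception, EREG. EREG, a ligand of the EGF receptor, read 90.9 and 34.9, below the floor in hypoxia. HBEGF (59.6 and 30, below the floor in hypoxia) and the early response gene FOS (2248 and 1366, -0.71, but -0.22 in a second probe set) were lower. So were the transmembrane protein TMEFF2 (322 and 183, -0.76) and the receptor ERBB3 (-0.56). The ligand NRG1 (1179 and 1965, 0.73) was higher, although a second NRG1 probe set gave -0.12. Of 30 measured genes of that list 11 were higher and 19 lower, with a median of -0.17. AXIN2, a feedback inhibitor and target of Wnt signalling, read 104 and 223, at 0.99 just short of 2-fold, and at 1.04 in the KD pair. A pair of other AXIN2 probe sets, both below the floor in WT hypoxia, gave -0.52 and -0.48 in the WT pair. WLS, which carries Wnt proteins to the surface, was at 0.44, the ubiquitin ligase RNF43 at 0.36 and the transcription factor TCF7L2 at -0.39. Of 27 measured Wnt genes 17 were higher and 10 lower, 11 of them below the floor in both WT arrays.

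Housekeeping and growth programmes lay close to 0. The 30 measured oxidative phosphorylation genes had a median of -0.02 with 14 higher and 16 lower, and those that reached the floor ran from SDHC at -0.19 and NDUFV1 at -0.18 to NDUFS1 at 0.16 and NDUFB6 at 0.19. The medians were 0.07 for 34 S phase genes (24 higher and 10 lower), 0.09 for 28 mitosis genes (19 and 9), 0.08 for 29 ribosome biogenesis genes (20 and 9) and 0.03 for 28 genes of the unfolded protein and ATF4 response (17 and 11). None of these 5 lists had a member past 2-fold. CDC25C, a phosphatase that starts mitosis, came nearest at 0.98 (201 and 414), and NUF2 of the kinetochore was at -0.85 (1430 and 784), while the mitotic kinases BUB1B and AURKB were at 0.48 and 0.46. Of the S phase genes the cyclins CCNE1 (0.47, and -0.09 in a second probe set) and CCNE2 (0.43) were higher, and the polymerase POLA1 (-0.53, and 0.11 in a second probe set) and the methylation factor UHRF1 (-0.50) lower. Among members that reached the floor, the largest of the ribosome genes were NPM1 (-0.39), POLR1C (0.34), PES1 (0.30, and -0.35 in a second probe set) and POLR1A (0.29, 39.1 in normoxia). Those of the ATF4 response, by the same limit, were ATF3 (0.41), TRIB3 (-0.23), VLDLR (0.19) and SLC3A2 (0.16). Cholesterol synthesis and uptake had 5 higher and 16 lower of 21 (median -0.13), with TM7SF2 at -0.57 and EBP at -0.40, both enzymes of the later steps, PMVK of the early steps at -0.33 and the sterol sensor SCAP at 0.37. Second probe sets of PMVK and SCAP gave 0.16 and -0.30. The 23 measured keratins and genes of layered epithelium had a median of 0.04 (13 higher and 10 lower), with KRT16 at 0.72, KRT17 at -0.67, the transcription factor KLF5 at -0.51 and the crosslinking enzyme TGM1 at -0.31. Of 28 measured ion and water transport genes 14 were higher and 14 lower, with none past 2-fold. STC1, a hormone of calcium and phosphate balance, read 803 and 427 (-0.89), and the carnitine carrier SLC22A5 104 and 171 (0.63). The water channel AQP1 (31.5 and 57.6) was below the floor in normoxia and the sodium channel subunit SCNN1B (28.4 and 16) in both WT arrays.

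The other genes with the largest differences belong to no list. FILIP1L, a regulator of cell migration, read 119 and 533 in the WT pair and 266 and 929 in the KD pair (2.02 and 1.74). RHOBTB1 read 29.3 and 169 in the WT pair and 56.9 and 201 in the KD pair, with the WT normoxia value below the floor. A second RHOBTB1 probe set, also below it there, read 40 and 74.2 in the WT pair (0.69) and was at 0.25 in the KD pair. SORBS2, an adaptor of the actin cytoskeleton, was at 1.41 and 1.04 in the 2 pairs, ZNF618 at 1.34 and 1.41, and TDRD7, a granule protein, at 1.45 and 0.89. ADAMDEC1 (37.3 and 121), HTR1D (29.9 and 108) and CALHM2 (46.1 and 160) were below the floor in WT normoxia. A second CALHM2 probe set was above it, with 90.9 and 96.8 (0.08). POLR3G, a subunit of RNA polymerase III, read 82.3 and 733 in the WT pair and 190 and 148 in the KD pair, so WT hypoxia stood alone. A second POLR3G probe set read 118 and 121 in the WT pair. STAU2, an RNA-binding protein, read 166 and 465 in the WT pair and 224 and 261 in the KD pair. Another STAU2 probe set, below the floor in WT normoxia, gave 0.50 in the WT pair. CDC42SE1 read 9.85 and 55.3 and was below the floor in both KD arrays.

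On the lower side SH3BP5, an adaptor that binds the kinase JNK, read 2619 and 679 in the WT pair and 2023 and 560 in the KD pair, but a second probe set gave -0.11 in the WT pair. CRYM, which binds thyroid hormone, read 302 and 79.6 in the WT pair and 399 and 123 in the KD pair. A second CRYM probe set, below the floor in WT hypoxia, read 64.6 and 33 in the WT pair (-0.72). SFTA2 (225 and 61.3) and SFTPD (343 and 134), surfactant-associated proteins of epithelia, were at -1.64 and -1.26, and at -2.16 and -1.36 in the KD pair. ABCA8 (122 and 34) and NDNF (75.9 and 13.5) were below the floor in WT hypoxia and in KD hypoxia. KDM7A, a histone demethylase, read 92.6 and 18.4 in the WT pair and 69.8 and 83.7 in the KD pair, so only the WT hypoxia array was below the floor. FAM107B, which like SFTPD and MUC16 was named after its values were seen, read 979 and 368 in the WT pair but 912 and 944 in the KD pair, so here too WT hypoxia stood alone. The membrane mucin MUC16 read 606 and 276 (-1.09) in the WT pair and was at -1.09 in the KD pair.

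Several of the 115 genes lie close to each other in the RefSeq gene order of a German Shepherd assembly, used here for order alone. Within 3 protein-coding genes of each other were 5 pairs, and both members of each pair lay on the same side. How many pairs another set of 115 genes would give was not tested. The 5 pairs were CCL2 with CCL7, STEAP1 with STEAP2, S100A2 with S100A4, CXCL8 with RASSF6, and ELL2 with GLRX. CXCL8 was below the floor in both WT arrays, and CCL7, STEAP1 and STEAP2 in WT hypoxia, so these sizes are not measured. ELL2, an elongation factor of RNA polymerase II, read 939 and 2181 (1.20), and RASSF6, of a family of Ras-binding proteins, 375 and 158 (-1.17). Second probe sets gave 1.04 for ELL2 and -0.46 for RASSF6 in the WT pair.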

How the data were processed

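RNA from 4 dog MDCKII cultures was hybridised to 1 Affymetrix dog array each, from 100 ng of total RNA per the labels. The authors deposited 1 linear intensity per probe set and array; the sources used here do not give the software or scaling behind these intensity values, and the similar array medians do not settle them. Depth does not apply to arrays, and their number limits the precision.

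Intensities were used as deposited and taken as log2(intensity + 16). Of 42924 probe sets, 29254 carried 1 gene symbol in the platform annotation, 439 several and 13231 none, and the last 2 kinds named no gene. RefSeq gene names (assembly UU_Cfam_GSD_1.0) held 27680 of the symbols' probe sets. Each of 15115 genes was represented by its probe set of highest mean intensity, and 9834 reached the floor. With 1 array per group no test was run. A gene was called when it differed at least 2-fold, and lists were described by counts and medians over all measured members.

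HIF1A, the 20 genes with the largest WT difference in each direction, and members of 31 lists were named, with the 4 largest and all 2-fold members of each list. SCUBE3, GLRX, SFTPD, FAM107B, MUC16, ELL2, RASSF6, LETM2, VWA5B2 and the genes beside the 2-fold limit were named after their values were seen. The members and lists were chosen with earlier results of these data known. The calculation was tested on simulated data. Python 3.11.15 with pandas 2.3.3 was used, and limma 3.58.1 in R 4.3.3 for other scalings. The alternatives were other pseudocounts, scalings, floors, fold limits and probe set rules. No gene sequences were used here.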

Additional observations from a re-analysis of the deposited data

Results flagged for a closer look

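For 30 genes named above that reached the floor in at least 1 array, the WT and KD pairs lay on opposite sides of 0. The difference between the pairs was not tested, since each group has 1 array. Values here are the WT difference minus the KD difference, on the log2(intensity + 16) scale. For 20 of these genes all 4 arrays reached the floor. Among the 30, both pairs were at least 1.5-fold apart for ADM and for ADAMTS3, which was below the floor in both KD arrays.

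The value was 3.25 for POLR3G, 1.87 for ADM, 1.13 for GPI, 0.91 for EGLN1, 0.52 for DLA-64, 0.37 for ARNT, 0.37 for RNF43 and 0.33 for PES1, where the WT difference was above 0. It was -1.42 for FAM107B, -0.98 for ADAM9, -0.92 for KRT17, -0.78 for LAMB3, -0.49 for TRIB3 and -0.43 for PMVK, where it was below 0. It was smaller for STAT2 (-0.20), SERPINB1 (0.08), S100A6 (-0.08), CCN1 (0.07), TAP1 (0.05) and B2M (0.04). At least 1 array was below the floor for ADAMTS3 (-2.41), CDC42SE1 (1.99), KDM7A (-1.88), EPAS1 (-1.01), PTPRC (-0.87), STAT6 (-0.83), POLR1A (0.72), AQP1 (0.67), ACTA2 (-0.58) and TFRC (-0.16).

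Probe sets without a gene symbol were in no comparison. Of 13231 such probe sets 6424 reached the floor, and in the WT pair 76 were higher by 2-fold or more and 50 lower by as much. In both pairs 41 were higher and 23 lower by that margin. Of the 9834 named genes, each read by 1 probe set, 59 (0.600%) were higher and 56 (0.569%) lower in the WT pair. In both pairs these numbers were 23 and 31.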

How the results depend on the processing

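The genes at least 2-fold higher and lower numbered 59 and 56. Their number followed the pseudocount, at 109 and 102 with log2(intensity + 1) and 21 and 23 with log2(intensity + 64). It was 89 and 94 with no floor, 34 and 28 with the floor at the 75th percentile, and 37 and 33 with the floor reached in both WT arrays. At 3-fold it was 9 and 17, and at 1.5-fold 328 and 283. The higher genes were 51.3% of those called and 34.6% of those past 3-fold. With quantile normalization, median centring, cyclic loess or the median over probe sets both counts stayed within 1.5 times the first ones. HIF1A was at -2.41, and at -1.80 with the median over probe sets, which takes in its dimmer probe sets. Under that rule VWA5B2 was at -0.19 and the desmosome median at 0.02, and these were the 2 reversals. Of 67 named genes 2-fold apart, 32 were so in every alternative that gave a value, 28 were not with log2(intensity + 64) and 19 were not with the median over probe sets. No paired analysis was possible because each group has 1 array.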
